A study of Danio rerio with 4 samples.

Results

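The 4 genes described here, called the carriers, are grouped by name as plasma carriers of vitamins or thyroid hormone. They are retinol-binding protein 4 (rbp4), transthyretin (ttr), the vitamin D-binding protein (gc) and a transcobalamin (tcnba), the last by its name alone. They were chosen by name as a group on the measured values of these same libraries, in which their abundance (RPKM, reads scaled to transcript length and library size) had been seen to differ, so that their differences below are a description and carry no test. All 4 were found among the 33737 genes of the deposited table, and all 4 are among the 11135 genes with a mean of at least 1 RPKM, called the tested genes here. Livers were dissected from zebrafish larvae of strain ABGO that carried the transgene Tg(lfabp:Dendra2-NTR), in which the liver-type fatty acid-binding protein promoter (that of fabp10a in zebrafish) drives the fluorescent protein Dendra2 fused to nitroreductase. Cells that fluoresced were collected on a flow sorter. The 4 groups, each of 1 Smart-seq2 library, were zc3h8-/- mutant hepatocytes at 7.5 days post fertilisation (dpf), wild-type hepatocytes at 7.5 dpf, zc3h8-/- mutant hepatocytes at 5.5 dpf and wild-type hepatocytes at 5.5 dpf. The transgene was carried by mutants and wild types alike. The sources used here do not give the number of larvae behind each library. No gene ID of the table carried the symbol zc3h8, so that the mutated gene could not be used to check the labels. With 1 library per group no difference has a replicate check. The libraries held 29648253 to 36999723 reads in genes. Wild type at 7.5 dpf had the most tested genes at 0 reads, 3505, against 2205 in the mutant at 7.5 dpf, 2656 in the mutant at 5.5 dpf and 1849 in wild type at 5.5 dpf.

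Hepatocytes make and secrete most carriers of small lipophilic molecules in blood. Rbp4 binds retinol (vitamin A alcohol) released from liver stores, and in mammals it travels in a complex with transthyretin, which also carries thyroxine. The vitamin D-binding protein, encoded by gc, holds the hydroxylated forms of vitamin D and scavenges actin from plasma, while transcobalamins and intrinsic factor form a family that binds cobalamin (vitamin B12) in blood, secretions and the gut.

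The mutant libraries showed opposite differences within this group of carriers. At 7.5 dpf rbp4, ttr and gc were all at least 2-fold lower in mutant than in wild-type cells, and tcnba, which had 0 reads in wild type, stood at 686 RPKM in the mutant. At 5.5 dpf tcnba was 52.7-fold higher in the mutant, and rbp4, ttr and gc were 1.37- to 1.65-fold lower. Counted by a difference of at least 1 in log2(RPKM + 1), 1 member was higher and 3 were lower in the mutant at 7.5 dpf, where 40.0% of all tested genes were higher and 23.1% were lower. The same count at 5.5 dpf gave 1 member higher and 0 lower, where 28.0% of tested genes were higher and 25.6% were lower. Because these contrasts chose the members, nothing is read from the counts against those shares.

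**Figure D1:**
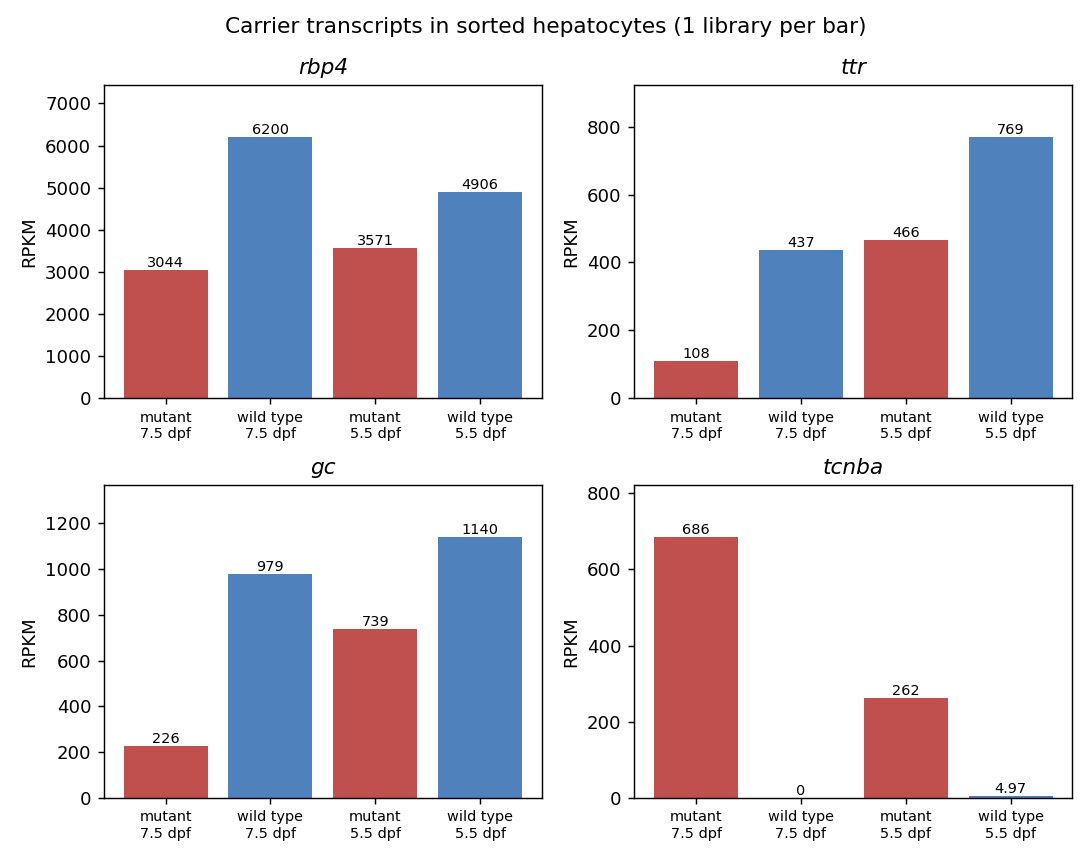
RPKM (vertical axis, from 0, with its own scale in each panel) of rbp4, ttr, gc and tcnba in each of the 4 libraries, 1 bar per library with mutant in red and wild type in blue. At each stage the mutant bar lies below the wild-type bar for rbp4, ttr and gc and above it for tcnba, which has no bar in wild type at 7.5 dpf.

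Rbp4 was the most abundant of the 4 in every library. Its level was 3044 RPKM in the mutant and 6200 RPKM in wild type at 7.5 dpf, and 3571 RPKM in the mutant and 4906 RPKM in wild type at 5.5 dpf. Both mutant libraries lay below both wild-type libraries. Its place among all genes of a library, ordered by RPKM, was 17 in the mutant and 11 in wild type at 7.5 dpf, and 17 in the mutant and 13 in wild type at 5.5 dpf. The mutant level was 2.04-fold lower at 7.5 dpf, with a 95% counting interval of 2.02 to 2.05, and 1.37-fold lower at 5.5 dpf, with an interval of 1.37 to 1.38. These intervals rest on 142081 reads in the mutant and 361091 in wild type at 7.5 dpf, and they cover counting error only, since libraries amplified by PCR without molecular identifiers do not count independent molecules. On the log2(RPKM + 1) scale the differences of -1.03 at 7.5 dpf and -0.46 at 5.5 dpf place rbp4 just past the 2-fold rule at the later stage. The gene ID behind rbp4 is ENSDARG00000077505, which the authors' deposited tables describe as retinol-binding protein 4-A. The ID that the symbol table pairs with rbp4, ENSDARG00000101199, is not among the IDs used here.

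Ttr (ENSDARG00000037191) was the least abundant of the 3 lower carriers. It stood at 108 RPKM in the mutant and 437 RPKM in wild type at 7.5 dpf. The level at 5.5 dpf was 466 RPKM in the mutant and 769 RPKM in wild type. The mutant library at 7.5 dpf was the low one, and the mutant level at 5.5 dpf was above that of the older wild type, so that the genotypes overlap across stages. The mutant level was 4.05-fold lower at 7.5 dpf (interval 3.89 to 4.22) and 1.65-fold lower at 5.5 dpf (1.62 to 1.69). Its place in the order of RPKM was 783 in the mutant and 182 in wild type at 7.5 dpf, and 197 in the mutant and 119 in wild type at 5.5 dpf.

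Gc (ENSDARG00000089310) followed ttr closely. Its level was 226 RPKM in the mutant and 979 RPKM in wild type at 7.5 dpf, and 739 RPKM in the mutant and 1140 RPKM in wild type at 5.5 dpf. Both mutant libraries lay below both wild-type libraries, and the older mutant was the lowest of the 4. The mutant level was 4.34-fold lower at 7.5 dpf (4.23 to 4.45) and 1.54-fold lower at 5.5 dpf (1.52 to 1.57).

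Tcnba (ENSDARG00000068088), for which the authors' deposited tables give no description, had 13314 reads in the mutant and 0 in wild type at 7.5 dpf, and 6232 reads in the mutant and 117 in wild type at 5.5 dpf. These counts correspond to 686 RPKM in the mutant and 0 RPKM in wild type at 7.5 dpf, and to 262 RPKM in the mutant and 4.97 RPKM in wild type at 5.5 dpf. The mutant and wild-type libraries do not overlap. Because the members were chosen on these values, nothing is read from this separation or from those of rbp4 and gc. The share of tested genes separated in the same way is not given here. With the count of 0 in wild type set to 3 reads, the mutant level at 7.5 dpf was 5538-fold higher. That fold is a lower bound for counting error only, and not for the level in the cells. At 5.5 dpf the mutant level was 52.7-fold higher, with an interval of 43.9 to 63.8. On the log2(RPKM + 1) scale the differences were 9.42 at 7.5 dpf and 5.46 at 5.5 dpf. At 7.5 dpf 1 tested gene had a larger difference, ENSDARG00000086869 with 10.5, named here because of its value, and at 5.5 dpf 15 tested genes did. In the order of RPKM tcnba stood at place 119 in the mutant at 7.5 dpf and at place 353 in the mutant and 5324 in wild type at 5.5 dpf.

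A count of 0 at a low level has to be read against how often it occurred in these libraries. Of the 1759 other tested genes with 59 to 234 reads in wild type at 5.5 dpf, a range within 2-fold of the 117 reads of tcnba, 674 had 0 reads in wild type at 7.5 dpf. Of the same genes, 453 had 0 reads in the mutant at 7.5 dpf and 530 had 0 reads in the mutant at 5.5 dpf. The levels of tcnba in the mutants, in contrast, rest on 6232 reads or more. Zeros also occurred beside higher counts, in genes named here for their values. Dio1 had 1894 reads in the mutant at 5.5 dpf and 0 in the mutant at 7.5 dpf. Rdh10a had 0 reads in the mutant at 5.5 dpf, against 1247 in wild type at that stage. Values of 0 in the lists below carry the same limit, and why they arose was not tested.

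**Figure D2:**
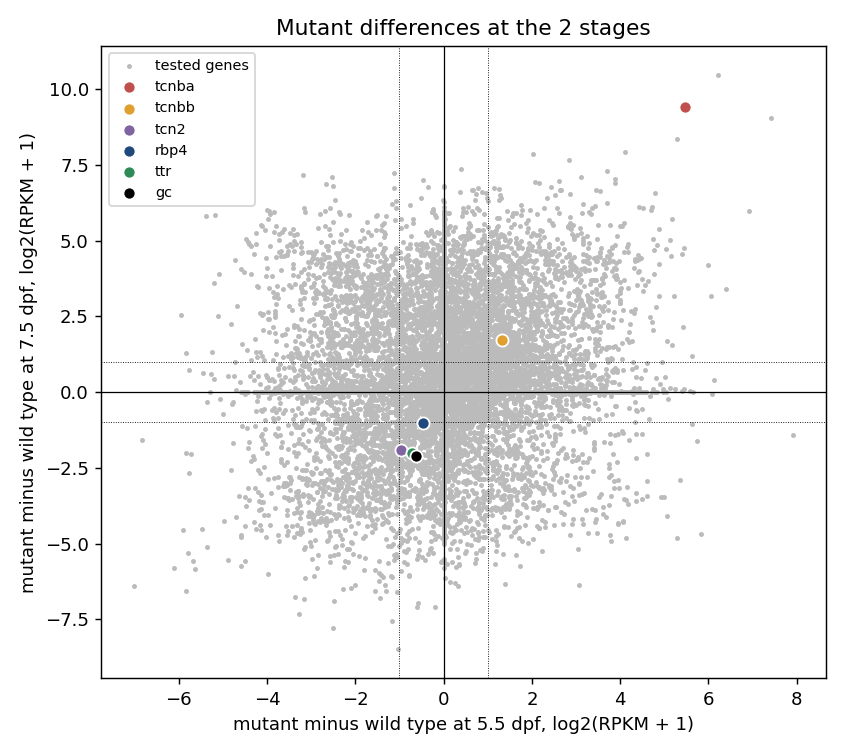
Mutant minus wild type in log2(RPKM + 1) at 5.5 dpf (horizontal axis) and at 7.5 dpf (vertical axis) for the 11135 tested genes (grey), with the 4 carriers and the related genes tcnbb and tcn2 in colour and dotted lines at 2-fold. Tcnba lies at 5.46 and 9.42 near the upper right edge, ttr, gc and tcn2 lie together below zero, and rbp4 lies closer to the centre.

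Between stages the members differed again. In the mutant, tcnba was 2.62-fold higher at 7.5 dpf than at 5.5 dpf (interval 2.54 to 2.70), ttr was 4.32-fold lower (4.15 to 4.50), gc was 3.28-fold lower (3.19 to 3.36) and rbp4 was 1.17-fold lower (1.165 to 1.181). In wild type, tcnba was 40.1-fold lower at 7.5 dpf with its 0 set to 3 reads, a bound for counting error only. Also in wild type, ttr was 1.76-fold lower (1.72 to 1.80), gc was 1.17-fold lower (1.149 to 1.182) and rbp4 was 1.26-fold higher (1.26 to 1.27). By the 2-fold rule 1 member (tcnba) was higher and 2 (ttr and gc) were lower at the later stage in the mutant, where 33.8% of tested genes were higher and 26.2% were lower. In wild type 0 members were higher and 1 (tcnba) was lower, where 21.4% of tested genes were higher and 30.1% were lower. The mutant difference at 7.5 dpf minus that at 5.5 dpf was 3.96 for tcnba, -0.57 for rbp4, -1.29 for ttr and -1.49 for gc on the log2(RPKM + 1) scale, and with 1 library per group these changes between stages could not be tested. The value of tcnba also depends on the pseudocount. Its mutant differences were 12.7 at 7.5 dpf and 5.69 at 5.5 dpf with 0.1 RPKM added, and 7.11 and 4.74 with 5 RPKM added.

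Because RPKM is scaled to transcript length, the carriers can be set beside each other within a library. The 4 together summed to 4063 RPKM in the mutant and 7616 RPKM in wild type at 7.5 dpf, and to 5037 RPKM in the mutant and 6820 RPKM in wild type at 5.5 dpf. Rbp4 made up 74.9% of that sum in the mutant and 81.4% in wild type at 7.5 dpf, and 70.9% in the mutant and 71.9% in wild type at 5.5 dpf. Tcnba made up 16.9% in the mutant and 0% in wild type at 7.5 dpf, and 5.20% in the mutant and 0.0728% in wild type at 5.5 dpf. In the older mutant tcnba was thus the second most abundant of the 4, above ttr and gc together, while in both wild-type libraries it was the least abundant.

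The transcripts of rbp4 and ttr, whose proteins travel in a complex in mammals, did not keep a fixed proportion. The level of rbp4 was 28.2 times that of ttr in the mutant and 14.2 times in wild type at 7.5 dpf, and 7.67 times in the mutant and 6.38 times in wild type at 5.5 dpf. The ratio was higher in the mutant at each stage and higher at 7.5 dpf than at 5.5 dpf in each genotype. In contrast, the ratio of gc to ttr was 2.09 in the mutant and 2.24 in wild type at 7.5 dpf, and 1.59 in the mutant and 1.48 in wild type at 5.5 dpf, so that gc and ttr kept nearly the same proportion in both genotypes of a stage. Over the 4 libraries the profiles of ttr and gc, as log2(RPKM + 1) centred on each gene's mean, lay 0.50 apart by Euclidean distance, against 1.28 for rbp4 and gc, 1.67 for rbp4 and ttr, and 8.52 to 9.23 for tcnba and each of the others.

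The sorted cells expressed the defining hepatocyte genes: all 21 hepatocyte marker genes that could be matched, among them fabp10a (a fatty acid-binding protein), tfa (transferrin) and apoa2 (an apolipoprotein), stood at 1 RPKM or more in every library. Their summed level was 22305 RPKM in the mutant and 81127 RPKM in wild type at 7.5 dpf, and 48337 RPKM in the mutant and 92932 RPKM in wild type at 5.5 dpf. At 7.5 dpf 17 of the 21 were at least 2-fold lower in the mutant and 1 (hnf4a, a hepatocyte transcription factor) was higher, with a median difference of -1.79. Over all tested genes 23.1% were lower and 40.0% were higher, with a median of 0.33. At 5.5 dpf 10 of the 21 were lower and 0 were higher, with a median of -0.96. Over all tested genes 25.6% were then lower and 28.0% were higher, with a median of 0. The differences of ttr and gc at 7.5 dpf were above those of 6 of the 21 markers and below those of the other 15, and that of rbp4 was above 17 of them. The 4 markers with a difference above that of rbp4 were fgg and fgb (fibrinogen chains), cebpa and hnf4a (transcription factors). In a bulk library, fewer cells of a type and less RNA of a gene per cell cannot be told apart. The promoter of the transgene used for sorting belongs to fabp10a, whose own transcript was 3.47-fold lower in the mutant at 7.5 dpf (3.44 to 3.49) and 2.27-fold lower at 5.5 dpf (2.26 to 2.28).

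Levels of markers of other cell types are given as measured. Beside their counts past 2-fold stand the shares of all tested genes, 40.0% higher and 23.1% lower in the mutant at 7.5 dpf. At 5.5 dpf these shares were 28.0% higher and 25.6% lower. No change in a cell type is read from the counts. The summed level of 18 macrophage marker IDs was 653 RPKM in the mutant and 163 RPKM in wild type at 7.5 dpf, and 97.0 RPKM in the mutant and 28.0 RPKM in wild type at 5.5 dpf, with c1qc and cd74a at 0 in every library. Without lgmn, the other 17 IDs summed to 467 RPKM in the mutant and 28.2 RPKM in wild type at 7.5 dpf. Their sums at 5.5 dpf were 68.0 RPKM in the mutant and 9.9 RPKM in wild type. Of 12 tested macrophage genes 10 were at least 2-fold higher and 1 was lower in the mutant at 7.5 dpf. In the mutant at 5.5 dpf 5 were higher and 1 was lower. For 7 neutrophil marker IDs the sums were 794 RPKM in the mutant and 273 RPKM in wild type at 7.5 dpf, and 414 RPKM in the mutant and 206 RPKM in wild type at 5.5 dpf, with illr4 and npsn at 0 throughout. Most of each neutrophil sum was cebpb, a transcription factor that is also made outside neutrophils. The other 6 IDs summed to 220 RPKM in the mutant and 0.055 RPKM in wild type at 7.5 dpf, and to 32.0 RPKM in the mutant and 12.5 RPKM in wild type at 5.5 dpf, where lyz stood at 0 RPKM in the mutant and 9.55 RPKM in wild type. The sums of 15 biliary and stellate marker IDs were 2500 RPKM in the mutant and 1013 RPKM in wild type at 7.5 dpf, and 1111 RPKM in the mutant and 601 RPKM in wild type at 5.5 dpf. Without krt18a.1, the other 14 IDs summed to 1685 RPKM in the mutant and 617 RPKM in wild type at 7.5 dpf. Their sums at 5.5 dpf were 793 RPKM in the mutant and 350 RPKM in wild type. Of 14 tested biliary and stellate genes 11 were at least 2-fold higher and 1 was lower in the mutant at 7.5 dpf. In the mutant at 5.5 dpf 10 were higher and 2 were lower. The sums of these 3 lists were higher in the mutant at both stages, in the direction of tcnba. So were the erythroid sums, the skin and muscle sums without the keratin krt4, and the very low endothelial sums, all given below. The sums of exocrine pancreas and intestinal markers were lower in the mutant at both stages, in the direction of rbp4, ttr and gc. For 15 exocrine pancreas IDs the sums were 507 RPKM in the mutant and 2016 RPKM in wild type at 7.5 dpf, and 52.1 RPKM in the mutant and 471 RPKM in wild type at 5.5 dpf. For 10 intestinal IDs they were 729 RPKM in the mutant and 1805 RPKM in wild type at 7.5 dpf, and 1479 RPKM in the mutant and 3340 RPKM in wild type at 5.5 dpf, with mep1a.1, mep1a.2 and fabp6 at 0 throughout. Nearly all of the intestinal sums was apoa4b.1 and apoa4b.2, and the other 8 IDs summed to 18.9 RPKM in the mutant and 45.9 RPKM in wild type at 7.5 dpf, and to 50.9 RPKM in the mutant and 75.0 RPKM in wild type at 5.5 dpf. Gene by gene the intestinal list was mixed: of 7 tested genes 2 (chia.3 and chia.4) were at least 2-fold higher and 4 were lower in the mutant at 7.5 dpf, and 1 (vil1) was higher and 1 (apoa4b.2) was lower at 5.5 dpf, these being named for their values. Skin and muscle markers (13 IDs) summed to 6637 RPKM in the mutant and 7793 RPKM in wild type at 7.5 dpf, and to 8608 RPKM in the mutant and 4595 RPKM in wild type at 5.5 dpf. Without the keratin krt4, the other 12 IDs summed to 3334 RPKM in the mutant and 1964 RPKM in wild type at 7.5 dpf, and to 2340 RPKM in the mutant and 1399 RPKM in wild type at 5.5 dpf. Of the 12 tested genes 4 were at least 2-fold higher and 0 were lower in the mutant at 7.5 dpf, and 6 were higher and 3 were lower at 5.5 dpf. Endothelial markers (8 IDs) summed to less than 1 RPKM in each library, and erythroid markers (6 IDs) summed to 40.1 RPKM in the mutant and 0.43 RPKM in wild type at 7.5 dpf, and to 19.1 RPKM in the mutant and 12.4 RPKM in wild type at 5.5 dpf. The part of these cell types in the levels of the 4 carriers was not tested.

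Transcripts of 3 genes named as cobalamin binders were measured, tcnba (by its name alone), tcnbb and tcn2. Tcnbb (ENSDARG00000091996), which the authors' deposited tables describe by its likeness to gastric intrinsic factor, the cobalamin binder of the mammalian gut, lies next to tcnba on chromosome 5 of the RefSeq assembly GRCz12tu with 0 genes between them. It stood at 1638 RPKM in the mutant and 494 RPKM in wild type at 7.5 dpf. Earlier, at 5.5 dpf, it was 2954 RPKM in the mutant and 1179 RPKM in wild type. The mutant level was 3.31-fold higher at 7.5 dpf (3.25 to 3.38) and 2.51-fold higher at 5.5 dpf (2.47 to 2.54), so that both neighbours were higher in both mutant libraries. Unlike tcnba, tcnbb was abundant in wild type, and in each genotype it was lower at 7.5 dpf, by 1.80-fold in the mutant (1.78 to 1.83) and 2.39-fold in wild type (2.34 to 2.43). Whether reads were divided between the tcnba and tcnbb copies in counting was not tested.

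Tcn2 (ENSDARG00000036481), described as transcobalamin-2, the plasma carrier that delivers cobalamin to cells in mammals, went the other way. It stood at 26.7 RPKM in the mutant and 104 RPKM in wild type at 7.5 dpf. In 5.5 dpf larvae it was 55.7 RPKM in the mutant and 109 RPKM in wild type. The mutant level was 3.91-fold lower at 7.5 dpf (3.71 to 4.12) and 1.95-fold lower at 5.5 dpf (1.88 to 2.03), and its difference at 7.5 dpf, -1.93, was close to those of ttr and gc. The 3 genes together summed to 2350 RPKM in the mutant and 599 RPKM in wild type at 7.5 dpf, and to 3271 RPKM in the mutant and 1293 RPKM in wild type at 5.5 dpf. Tcn2 supplied 1.14% of the sum in the mutant and 17.4% in wild type at 7.5 dpf, and 1.70% in the mutant and 8.42% in wild type at 5.5 dpf. Tcnba supplied 29.2% in the mutant and 0% in wild type at 7.5 dpf, and 8.0% in the mutant and 0.384% in wild type at 5.5 dpf.

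**Figure D3:**
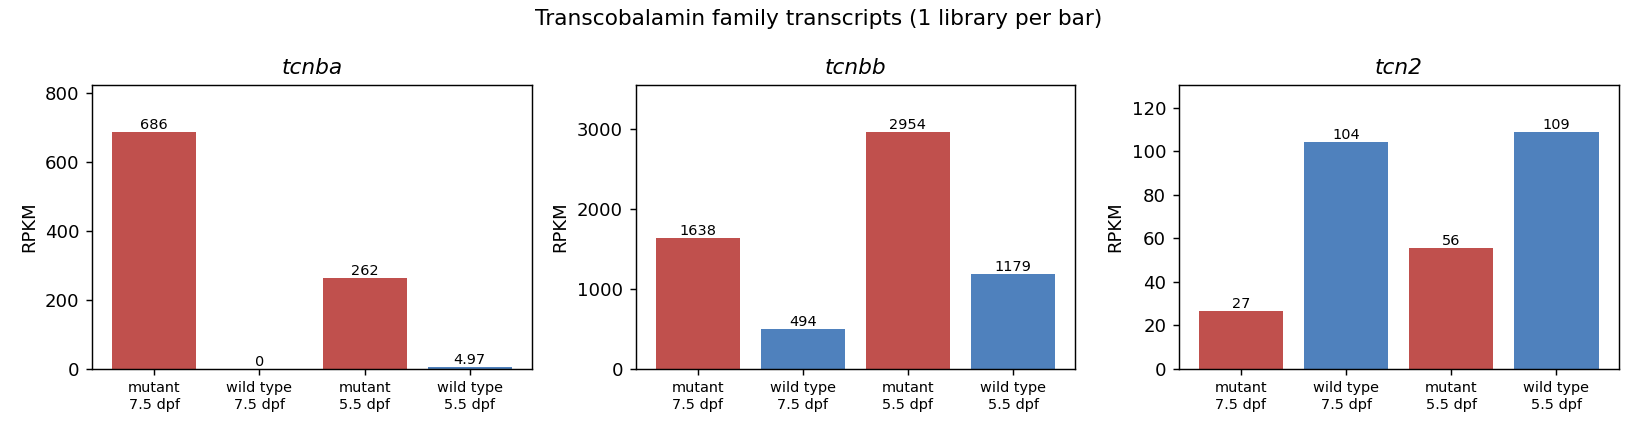
RPKM (vertical axis, from 0, with its own scale in each panel) of tcnba, tcnbb and tcn2 in each of the 4 libraries, 1 bar per library with mutant in red and wild type in blue. Tcnba and tcnbb are higher in the mutant at each stage and tcn2 is lower, with tcnbb at 494 RPKM or more in every library.

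Genes that take up, convert and use cobalamin showed no common direction. For this and the following lists, the values over all tested genes are 40.0% higher, 23.1% lower and a median of 0.33 at 7.5 dpf, and 28.0% higher, 25.6% lower and a median of 0 at 5.5 dpf. Of 15 tested genes on this list (17 IDs matched, tcnba not among them), 4 were at least 2-fold higher and 5 were lower in the mutant at 7.5 dpf, with a median of 0, and 4 were higher and 3 were lower at 5.5 dpf, with a median of -0.05. Besides tcnbb, mmadhca, whose mammalian relative directs cobalamin inside cells, was higher in both mutant libraries, with 20.3 RPKM in the mutant and 8.69 RPKM in wild type at 7.5 dpf, and 26.5 RPKM in the mutant and 12.6 RPKM in wild type at 5.5 dpf. The more abundant mmadhc, named for its values, was lower in the mutant at both stages. Mmadhc stood at 19.1 RPKM in the mutant and 45.9 RPKM in wild type at 7.5 dpf. Its levels at 5.5 dpf were 27.7 RPKM in the mutant and 34.1 RPKM in wild type. The other genes higher at 7.5 dpf were mmaa and the ID annotated as methionine synthase, both named for their values. Mmaa stood at 32.7 RPKM in the mutant and 0.01 RPKM in wild type, the latter from 1 read. At 5.5 dpf mmaa had 22.7 RPKM in the mutant and 15.6 RPKM in wild type, the latter from 1068 reads. The methionine synthase ID stood at 16.9 RPKM in the mutant and 6.18 RPKM in wild type at 7.5 dpf. It went the other way at 5.5 dpf, with 0.10 RPKM in the mutant and 20.1 RPKM in wild type. With median-ratio size factors, an alternative scaling given below, 1 gene of the list was at least 2-fold higher at 5.5 dpf. It was tcnbb, at 1.02, and not mmadhca. At 7.5 dpf 2 genes were higher under that scaling. Pccb, a subunit of propionyl-CoA carboxylase and the third most abundant gene of the list, stood at 68.8 RPKM in the mutant and 43.3 RPKM in wild type at 7.5 dpf. Values at 5.5 dpf were 80.2 RPKM in the mutant and 83.0 RPKM in wild type.

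Retinoid genes were mixed: the 3 with the highest levels were lower in the mutant, and most of those past 2-fold in both mutant comparisons were higher. Of 29 tested genes (44 IDs matched), 12 were higher and 8 were lower in the mutant at 7.5 dpf, with a median of 0.39, and 7 were higher and 8 were lower at 5.5 dpf, with a median of -0.09. The most abundant was ENSDARG00000093774, annotated as retinol-binding protein 2, a cellular retinol carrier. It stood at 235 RPKM in the mutant and 554 RPKM in wild type at 7.5 dpf. At 5.5 dpf the mutant had 826 RPKM and wild type had 1191 RPKM. Next came 2 dehydrogenases of the short-chain family. Dhrs9 stood at 24.2 RPKM in the mutant and 103 RPKM in wild type at 7.5 dpf. The level at 5.5 dpf was 112 RPKM in the mutant and 156 RPKM in wild type. Rdh1 stood at 40.6 RPKM in the mutant and 82.2 RPKM in wild type at 7.5 dpf. Earlier, at 5.5 dpf, it was 69.5 RPKM in the mutant and 120.5 RPKM in wild type. All 3 were lower in the mutant at both stages, as rbp4 was. A less abundant ID annotated as retinol-binding protein 2 (ENSDARG00000070038), named for its values, was not. That ID stood at 55.9 RPKM in the mutant and 8.41 RPKM in wild type at 7.5 dpf. Its levels at 5.5 dpf were 22.4 RPKM in the mutant and 21.6 RPKM in wild type.

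The retinoid genes past 2-fold in both mutant comparisons were mostly higher ones of modest level. ENSDARG00000016235, annotated as the cellular carrier retinol-binding protein 1, stood at 69.7 RPKM in the mutant and 6.55 RPKM in wild type at 7.5 dpf, and at 74.3 RPKM in the mutant and 15.6 RPKM in wild type at 5.5 dpf, which is 10.6-fold higher (9.43 to 12) and 4.75-fold higher (4.37 to 5.16). Rdh10b, which oxidises retinol to retinal, stood at 100 RPKM in the mutant and 17.0 RPKM in wild type at 7.5 dpf. In 5.5 dpf larvae it was 24.6 RPKM in the mutant and 0 RPKM in wild type. The similarly named rdh10a, named for its values, did not keep that direction. At 5.5 dpf rdh10a stood at 0 RPKM in the mutant and 14.5 RPKM in wild type. Its mutant difference at 7.5 dpf was 0.39 on the log2(RPKM + 1) scale, inside 2-fold. Aldh1a2, which makes retinoic acid from retinal, stood at 69.0 RPKM in the mutant and 0 RPKM in wild type at 7.5 dpf. Values at 5.5 dpf were 9.89 RPKM in the mutant and 0.01 RPKM in wild type. The retinoid X receptor gene rxrga stood at 15.8 RPKM in the mutant and 0 RPKM in wild type at 7.5 dpf. At 5.5 dpf the mutant had 17.8 RPKM and wild type had 0.26 RPKM. An ID annotated as cellular retinoic acid-binding protein 2 was also higher. It had 5.58 RPKM in the mutant and 0 RPKM in wild type at 7.5 dpf, and 3.66 RPKM and 0.99 RPKM at 5.5 dpf. The genes higher in both comparisons went in the direction of the biliary and stellate marker sums given above. IDs annotated as lecithin retinol acyltransferase, named for their values, did not. ENSDARG00000057813 stood at 0 RPKM in the mutant and 4.26 RPKM in wild type at 7.5 dpf, and at 6.57 RPKM and 10.2 RPKM at 5.5 dpf. ENSDARG00000037278 stood at 4.54 RPKM and 5.01 RPKM at 7.5 dpf, and at 0 RPKM and 0.58 RPKM at 5.5 dpf. The part of biliary and stellate cells was not tested. Rxrgb was the 1 gene at least 2-fold lower in both comparisons, at 0 RPKM in the mutant and 2.2 RPKM in wild type at 7.5 dpf. The level at 5.5 dpf was 0 RPKM in the mutant and 2.71 RPKM in wild type.

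On the thyroid hormone list the other plasma carrier was lower in the mutant at both stages, as ttr was, but it differed from ttr between stages. Serpina7, which in mammals is thyroxine-binding globulin, stood at 78.3 RPKM in the mutant and 199 RPKM in wild type at 7.5 dpf, and at 67.7 RPKM in the mutant and 114 RPKM in wild type at 5.5 dpf, 2.54-fold lower (2.44 to 2.64) and 1.69-fold lower (1.62 to 1.76) in the mutant. Between 7.5 and 5.5 dpf serpina7 differed by 0.21 in the mutant and 0.79 in wild type on the log2(RPKM + 1) scale, against -2.10 in the mutant and -0.82 in wild type for ttr. ENSDARG00000068644, annotated as 5-hydroxyisourate hydrolase, an enzyme of urate breakdown whose fold transthyretin shares, stood at 136 RPKM in the mutant and 370 RPKM in wild type at 7.5 dpf. Earlier, at 5.5 dpf, it was 103 RPKM in the mutant and 309 RPKM in wild type. Dio1, a deiodinase that converts thyroxine, stood at 0 RPKM in the mutant and 39.4 RPKM in wild type at 7.5 dpf. In 5.5 dpf larvae it was 35.3 RPKM in the mutant and 151 RPKM in wild type. Klf9, a thyroid hormone response gene in vertebrates, stood at 26.2 RPKM in the mutant and 62.6 RPKM in wild type at 7.5 dpf. Values at 5.5 dpf were 0 RPKM in the mutant and 15.6 RPKM in wild type. In the other direction dio3b, a deiodinase that inactivates the hormone, stood at 5.96 RPKM in the mutant and 0.54 RPKM in wild type at 7.5 dpf. At 5.5 dpf the mutant had 12.3 RPKM and wild type had 0.57 RPKM. A more abundant ID annotated as type III iodothyronine deiodinase (ENSDARG00000089937), named for its values, did not keep that direction. It stood at 48.7 RPKM in the mutant and 22.4 RPKM in wild type at 7.5 dpf, and at 0.53 RPKM in the mutant and 12.8 RPKM in wild type at 5.5 dpf. Over the list as a whole, 4 of 14 tested genes (19 IDs matched) were higher and 7 were lower in the mutant at 7.5 dpf, with a median of -0.61, and 5 were higher and 4 were lower at 5.5 dpf, with a median of 0.28.

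The vitamin D list differed more at 7.5 dpf. Of 9 tested genes (15 IDs matched, gc not among them), 1 was higher and 6 were lower in the mutant at 7.5 dpf, with a median of -2.22, and 1 was higher and 4 were lower at 5.5 dpf, with a median of 0.03 (-0.26 with median-ratio scaling). ENSDARG00000070420, annotated as the vitamin D 24-hydroxylase that inactivates the hormone, stood at 281 RPKM in the mutant and 991 RPKM in wild type at 7.5 dpf. The level at 5.5 dpf was 210 RPKM in the mutant and 201 RPKM in wild type. Cyp27a1.1, a sterol 27-hydroxylase, stood at 15 RPKM in the mutant and 73.6 RPKM in wild type at 7.5 dpf. Earlier, at 5.5 dpf, it was 18.1 RPKM in the mutant and 17.7 RPKM in wild type. For both enzymes the older wild type was the high library, and the other 3 libraries lay within 2-fold of each other. Dhcr7, cyp2r1 and cyp27b1 were at least 2-fold lower in both mutant comparisons. Dhcr7, which uses up the vitamin D precursor for cholesterol, stood at 0.35 RPKM in the mutant and 11.0 RPKM in wild type at 7.5 dpf. In 5.5 dpf larvae it was 15.2 RPKM in the mutant and 70.6 RPKM in wild type. The activating hydroxylases cyp2r1 and cyp27b1 were low throughout, with at most 9.47 RPKM, and stood highest in wild type at 7.5 dpf. Snw1, a coactivator and splicing protein, was the 1 gene higher at each stage, with 43.9 RPKM in the mutant and 18.4 RPKM in wild type at 7.5 dpf, and 34.2 RPKM in the mutant and 8.26 RPKM in wild type at 5.5 dpf. With median-ratio scaling 0 genes of this list, snw1 included, were at least 2-fold higher at 7.5 dpf.

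**Figure D4:**
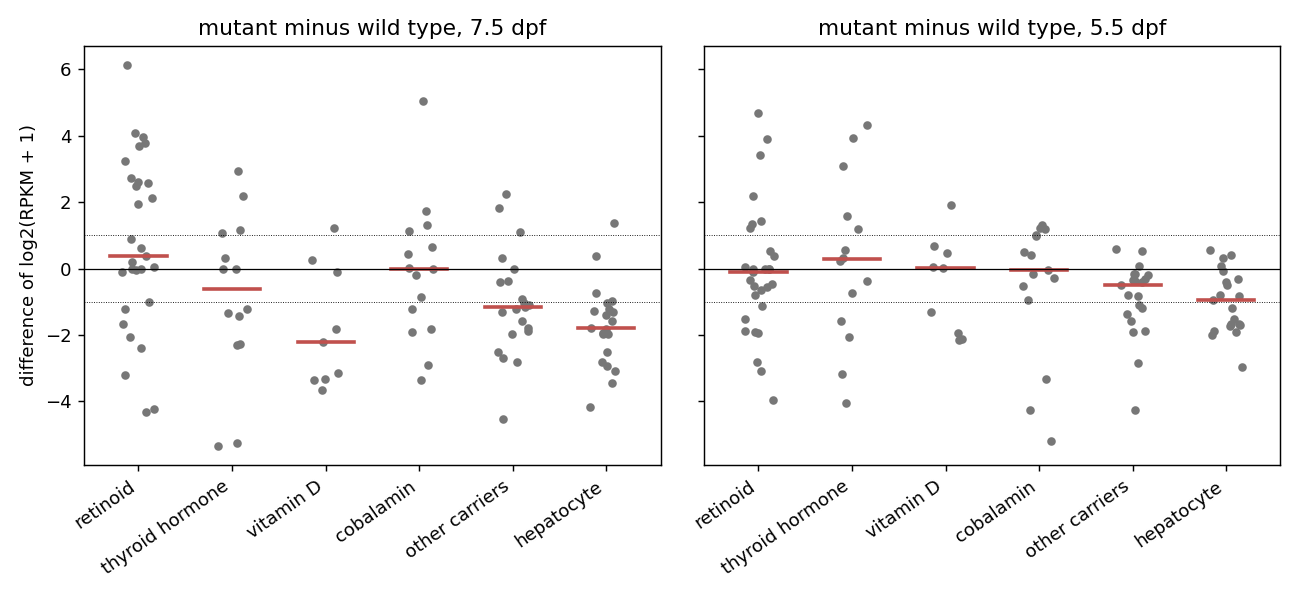
Mutant minus wild type in log2(RPKM + 1) at 7.5 dpf (left) and 5.5 dpf (right) for the tested genes of the retinoid, thyroid hormone, vitamin D, cobalamin, other carrier and hepatocyte lists, 1 grey point per gene, with a red bar at each list's median and dotted lines at 2-fold. The medians of the other carriers (-1.17 and -0.50) and of the hepatocyte markers (-1.79 and -0.96) lie below zero at both stages, and the vitamin D median is -2.22 at 7.5 dpf and 0.03 at 5.5 dpf, or -0.26 at 5.5 dpf with median-ratio scaling.

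A list of other carriers, most of them secreted into plasma and some, such as fabp10a and ttpa, working inside the cell, was mostly lower in the mutant at 7.5 dpf. Of 21 tested genes on this list (22 IDs matched, 8 of them also hepatocyte markers), 13 were at least 2-fold lower and 3 were higher in the mutant at 7.5 dpf, with a median of -1.17, and 8 were lower and 0 were higher at 5.5 dpf, with a median of -0.50. The 3 higher genes were ptgdsb.1, ptgdsb.2 (relatives of a lipocalin prostaglandin synthase) and ttpa (the tocopherol transfer protein), named for their values. Transferrin, the iron carrier tfa, stood at 474 RPKM in the mutant and 3322 RPKM in wild type at 7.5 dpf, and at 2472 RPKM in the mutant and 9281 RPKM in wild type at 5.5 dpf, 7.01-fold lower (6.93 to 7.08) and 3.75-fold lower (3.74 to 3.77). Cetp, the cholesteryl ester transfer protein, stood at 56.1 RPKM in the mutant and 367 RPKM in wild type at 7.5 dpf. Values at 5.5 dpf were 48.3 RPKM in the mutant and 128 RPKM in wild type. Igfals, which holds insulin-like growth factors in plasma in mammals, stood at 0.02 RPKM in the mutant and 22.5 RPKM in wild type at 7.5 dpf. At 5.5 dpf the mutant had 0 RPKM and wild type had 18.1 RPKM. Fabp10a, apobb.1 and pon1 were the remaining genes at least 2-fold lower at both stages.

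The genes whose profile over the 4 libraries was most like that of each member were taken from 649 genes with a symbol and a mean of at least 100 RPKM, by Euclidean distance between centred log2(RPKM + 1) values. For tcnba they were ENSDARG00000073820 at a distance of 1.01, cartpt at 2.0 and si:ch211-153b23.5 at 2.87. Cartpt, which encodes a neuropeptide precursor, stood at 532 RPKM in the mutant and 0 RPKM in wild type at 7.5 dpf. The level at 5.5 dpf was 170 RPKM in the mutant and 0 RPKM in wild type. ENSDARG00000073820 stood at 325 RPKM in the mutant and 0 RPKM in wild type at 7.5 dpf. Earlier, at 5.5 dpf, it was 107 RPKM in the mutant and 1.76 RPKM in wild type. For rbp4 the nearest genes were dlst at 0.19, f10 at 0.20 and mpc1 at 0.20, for ttr hao1 at 0.13, uox at 0.17 and gatm at 0.19, and for gc tpi1 at 0.15, g6pc1a.1 at 0.15 and cfb at 0.23. Uox, urate oxidase, which followed ttr, stood at 254 RPKM in the mutant and 1170 RPKM in wild type at 7.5 dpf. In 5.5 dpf larvae it was 1278 RPKM in the mutant and 1959 RPKM in wild type. With 4 libraries such a likeness is a description of 4 values.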

How the data were processed

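RNA from sorted hepatocytes was measured in 4 libraries, 1 per genotype and stage, and samples were grouped by their labels. The submitters' processing notes name DESeq 1.16.0, HTSeq 0.6.0, TopHat2 2.0.12 and Bowtie2 2.2.3, without roles. Strand use in counting, annotation and genome build are not given there or in the labels. According to their headers, the deposited files hold RPKM, as the authors computed it, for 33737 genes, and 4 comparison tables with a fold (the ratio of 2 columns), a log2 fold change and a p-value per gene. The tables' normalized columns were, from their values, CPM as the authors deposited them. Listed values clearly under 1 read were first set to 0 reads. Of the remaining listed values 100% were whole multiples of 1 read, and this step gave the whole reads. The tolerance was 0.01 of a read or, for large counts, a small relative error. Of 44540 values of the tested genes, 1502 were not listed and were filled from RPKM. The authors' p-values were not used.

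Levels are RPKM. Differences were taken on the log2(RPKM + 1) scale, where the change of low genes is understated, over the 11135 genes with a mean of at least 1 RPKM, and 2-fold means a difference of at least 1. Folds are ratios of CPM, with exact 95% intervals from the 2 read counts. A fold against 0 reads is a bound against 3 reads per library, which equal 0.0811 to 0.101 CPM. Intervals and bounds cover counting error only. Rules of recovery, fold and interval were tested on simulated data, as was edgeR 4.0.16, which was used on the recovered reads as an alternative.

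Symbols (21939 of 33737 IDs, 65.0%) came from a symbol table read without regard to capitals. Neighbourhood and chromosome came from RefSeq assembly GRCz12tu. List genes with no matching symbol were matched by the authors' annotation (31 IDs), which was done after the lists were written. The members, lists and rules were chosen with earlier results of these data known. Named genes are the 4 members; of each pathway list the genes past 2-fold the same way in both mutant comparisons and the 3 most abundant; the 3 nearest genes per member; of marker lists the 2 most abundant and, in the text, summed levels. Genes named for their values are marked so. Analyses used Python 3.11.15 with pandas 2.3.3, numpy 2.4.6 and scipy 1.17.1. Alternatives were other pseudocounts, median-ratio scaling, the authors' log2 fold changes, a 4-fold rule and other filters.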

Additional observations from a re-analysis of the deposited data

Results flagged for a closer look

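The change between stages ran in opposite directions in the genotypes for 2 of the carriers. On the log2(RPKM + 1) scale tcnba differed between 7.5 and 5.5 dpf by 1.39 in the mutant and by -2.58 in wild type. For rbp4 the same differences were -0.23 in the mutant and 0.34 in wild type, both inside 2-fold. With 1 library per group the difference between genotypes was not tested, and the wild-type value of tcnba rests on 117 reads at 5.5 dpf and 0 reads at 7.5 dpf.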

How the results depend on the processing

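The direction of all 24 differences of the 4 carriers, tcnbb and tcn2 over the 4 comparisons was the same with pseudocounts of 0.1 and 5 RPKM, with median-ratio size factors and in the authors' deposited log2 fold changes. Median-ratio size factors, from 5827 genes above 0 in all libraries, lowered the log2 ratio of mutant to wild type by 0.44 at 7.5 dpf and 0.30 at 5.5 dpf before the pseudocount, which leaves a smaller shift in genes near 0, and brought the median of all tested genes at 7.5 dpf to 0.03, against 0.33 with RPKM. Under them the differences at 7.5 dpf were 9.15 for tcnba, -1.46 for rbp4, -2.44 for ttr and -2.55 for gc, and 1 carrier (ttr, at -1.03) was at least 2-fold lower in the mutant at 5.5 dpf, against 0 with RPKM. Under them, too, the genes higher in the mutant numbered 2 on the thyroid hormone list and 0 on the vitamin D list at 7.5 dpf, and 2 at 7.5 dpf and 1 at 5.5 dpf on the cobalamin list. With a pseudocount of 5 RPKM, 0 carriers were lower at 7.5 than at 5.5 dpf in wild type. With a 4-fold rule 0 were higher and 1 was lower at 7.5 than at 5.5 dpf in the mutant. Against wild type at 7.5 dpf, 1 carrier was higher and 2 were lower in the mutant by the 4-fold rule. Without the filter on low values 2 vitamin D genes were higher in the mutant than in wild type at 7.5 dpf. Without it, 2 vitamin D genes were also higher at 7.5 than at 5.5 dpf in the mutant. In wild type, 2 genes of the other carrier list were then higher at 7.5 than at 5.5 dpf. Among genes with a mean of at least 10 RPKM, 1 of the 3 nearest genes of gc was shared with those named.

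On the recovered reads, edgeR's quasi-likelihood test of genotype had stage as a term, over 4 libraries with 1 residual degree of freedom. It called 0 of 11135 genes at an adjusted p of 0.05. The 342 genes at an unadjusted p under 0.05 in that test are not read as differences. No paired analysis was possible because each group has 1 library, beyond that fit, in which the stage term sets mutant against wild type within a stage. Leaving out a library leaves no comparison at its stage. Low values are limited: 3 reads equal 0.0811 to 0.101 CPM. Of 1759 genes with read counts near that of tcnba in wild type at 5.5 dpf, 674 had 0 reads in wild type at 7.5 dpf. Wild type held 35960165 reads in genes at 5.5 dpf and 36999723 at 7.5 dpf. Why these genes had 0 reads was not tested.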
